A study of Mus musculus with 36 samples.

Results

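The 9 liver enzymes of one-carbon metabolism and the methionine cycle described here were followed through feeding, fasting and refeeding in mice with a truncated insulin-signalling subunit. The members were the rows of the deposited count table whose gene name was Mat1a, Gnmt, Bhmt, Ahcy, Pemt, Nnmt, Mthfd1, Shmt1 or Shmt2, which gave 9 of 38283 genes, 1 row for each name. All 9 passed the filter on low counts and were tested with 13945 genes in all.

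In the methionine cycle, methionine is activated to S-adenosylmethionine, methyltransferases pass its methyl group to their substrates, and the S-adenosylhomocysteine that is left is hydrolysed to homocysteine. Homocysteine is then remethylated to methionine, with a methyl group from betaine or from folate, and folate in turn takes its one-carbon units largely from serine. The liver carries out much of the body's methionine metabolism and is the organ in which Mat1a, Gnmt and Bhmt are best known.

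The study asked how the liver responds to fasting and refeeding when insulin signalling through phosphoinositide 3-kinase (PI3K) is impaired. Liver RNA came from 36 male C57Bl/6J mice aged 16 weeks. Wild-type mice were compared with mice carrying 1 copy of the human pathogenic Pik3r1 Y657* mutation (labelled Pik3r1 Y657X), a knock-in allele made by homologous recombination and present in all tissues, which shortens the PI3K regulatory subunit p85α and its shorter forms. Heterozygosity and sex were taken from the paper, which also describes the allele, and the other features of the mice from the labels. The 6 groups of 6 mice were fed wild-type and fed WT/Y657* mice with free access to chow, wild-type and WT/Y657* mice fasted for 16 h, and wild-type and WT/Y657* mice fasted for 16 h and then refed chow for 6 h.

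Positions of genes are those of the GENCODE M21 annotation of build GRCm38. Total counts per mouse ranged from 8839481 to 19542778. Levels are given as CPM, counts relative to the size of the library, scaled between libraries by the trimmed mean of M-values, and a gene was called where its adjusted p in edgeR's quasi-likelihood test was under 0.05 over all 13945 genes. The 6 hepatocyte markers were abundant in every mouse, with a summed level between 46496 and 88272 CPM, and Mb of the 4 muscle markers was at 0 throughout. Pik3r1 RNA, the product of the targeted gene, was between 74.5 and 182 CPM over all mice and was not called between genotypes in any state, and both alleles contribute to this value. Mice are named here by the genotype (WT, or MT for WT/Y657*) and number of their labels. The numbers of fed mice (WT_847 to MT_869) lie between those of 2 other ranges, a lower one (MT_806 to WT_828) and a higher one (WT_896 to MT_923), and each of these holds 3 fasted and 3 refed mice of each genotype. Feeding state and mouse number therefore cannot be told apart when fed mice are compared with the others, whereas fasted and refed mice share both ranges. By the paper's description, livers were collected before the overnight fast, at its end or after refeeding. Feeding state and the time of collection therefore cannot be told apart in any comparison between states.

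Per kilobase of exon, the enzymes fell into an upper and a lower set (CPM per kilobase, mean ± SD, n = 6). The length was that of all annotated exons of a gene, merged over its transcripts, and the order depends on it. In fed wild-type mice Gnmt had the highest level at 869.1 ± 127, followed by Mat1a at 667 ± 99.4, Bhmt at 321 ± 106 and Ahcy at 194 ± 18.03. Pemt (84.7 ± 6.59), Nnmt (77.7 ± 24.8), Mthfd1 (66.3 ± 3.83), Shmt1 (56.9 ± 5.03) and Shmt2 (56.8 ± 6.28) followed, and the mice of each of these 5 genes overlapped with those of the next in the order. Among the upper set, Gnmt overlapped with Mat1a and Bhmt with Ahcy, while no mouse overlapped between Mat1a and Bhmt or between Ahcy and Pemt. In fasted wild-type mice Mat1a was at 2063 ± 266 CPM per kilobase and stood above Gnmt (856.9 ± 166) without overlap. Without division by length, the mean of fed wild-type mice was higher for Bhmt (1849.5 CPM) than for Gnmt (1048.1 CPM).

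**Figure D1:**
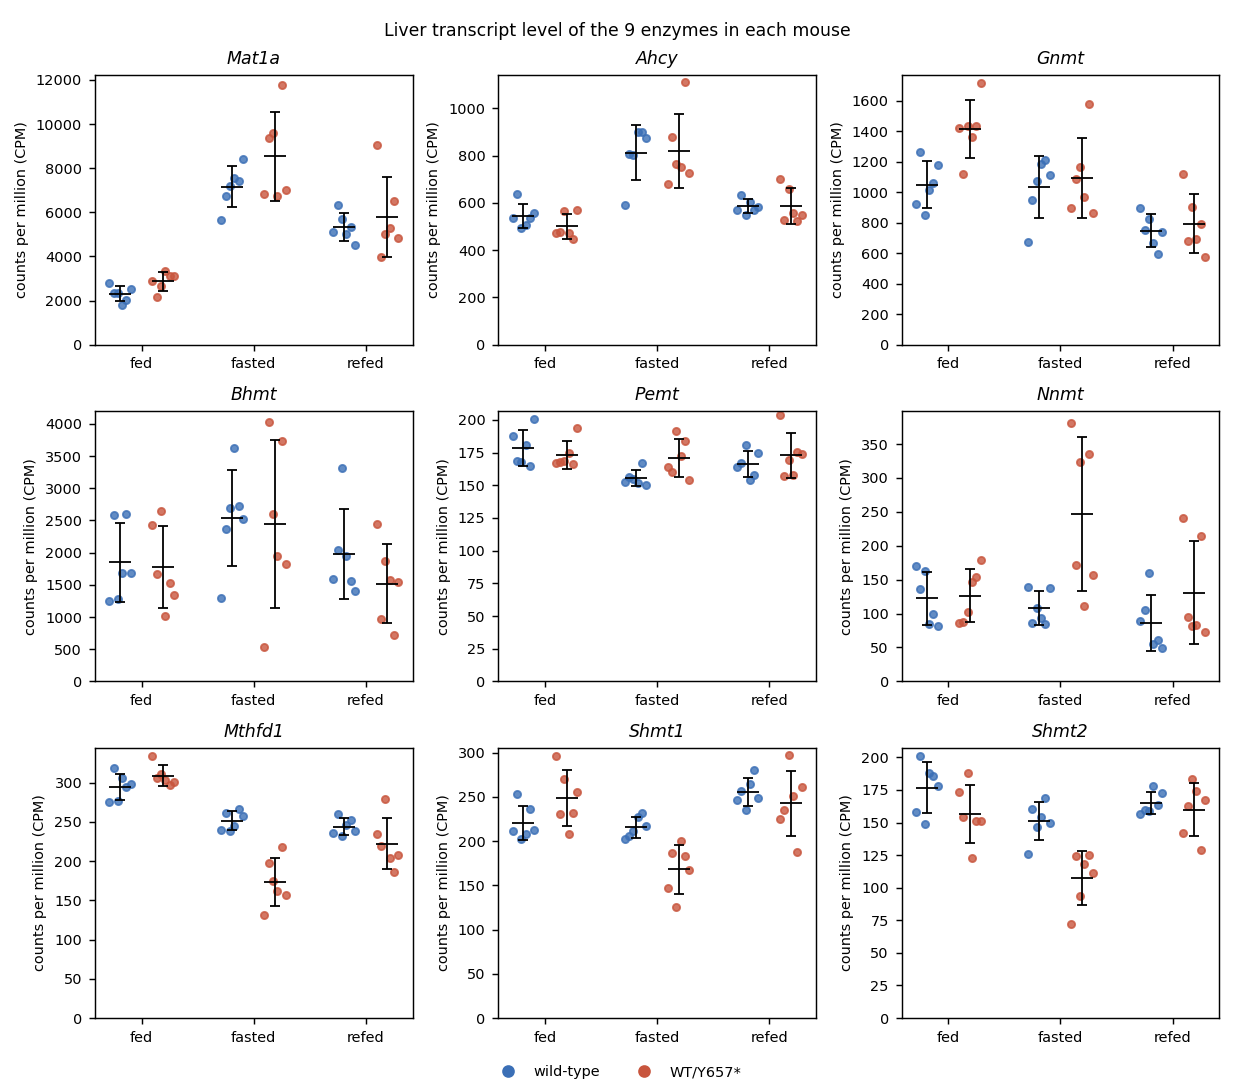
Level of each enzyme in CPM (vertical axes, linear and starting at 0) in each of 36 mice, as 1 point per mouse, with the mean and SD of each group of 6 in black. Mat1a is between 1824 and 3346 CPM in fed mice and between 5642 and 11745 CPM in fasted mice, and Mthfd1, Shmt1 and Shmt2 are lowest in fasted WT/Y657* mice.

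Mat1a (chr14:41105035-41124412, plus strand), the liver form of methionine adenosyltransferase that makes S-adenosylmethionine, had the widest range of group means of the 9 genes. Fed wild-type mice lay between 1824 and 2792 CPM with a median of 2345, and fasted wild-type mice between 5642 and 8407 with a median of 7308. Fed WT/Y657* mice lay between 2164 and 3346 CPM (median 2988), and fasted WT/Y657* mice between 6729 and 11745 (median 8175). The fed and fasted ranges did not overlap in either genotype. On fasting Mat1a rose 3.09-fold in wild-type mice (log2 1.63, standard error 0.16, edgeR adjusted p = 1.53e-10) and 2.97-fold in WT/Y657* mice (log2 1.57, standard error 0.16, edgeR adjusted p = 4.01e-10). The difference between these responses was -0.06 on the log2 scale, with an approximate 95% interval from -0.48 to 0.36. As livers were measured whole, fewer cells of a type and less RNA per cell cannot be told apart for this or any other gene.

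After 6 h of refeeding Mat1a had come down only part of the way. Refed wild-type mice lay between 4534 and 6321 CPM (median 5214), all above every fed wild-type mouse, and refed WT/Y657* mice between 3963 and 9044 (median 5164), all above every fed WT/Y657* mouse. Against fasted mice the log2 change was -0.42 in wild-type mice (standard error 0.15, edgeR adjusted p = 0.0316) and -0.56 in WT/Y657* mice (standard error 0.15, edgeR adjusted p = 0.00426). Against fed mice it remained at 1.21 (standard error 0.15, edgeR adjusted p = 3.46e-07) and 1.01 (standard error 0.15, edgeR adjusted p = 5.53e-06). The fall on refeeding in wild-type mice was close to the threshold. It was not called without mouse WT_918, WT_919 or WT_920 (fasted) or WT_815, WT_896, WT_900 or WT_901 (refed), with edgeR adjusted p between 0.0506 and 0.0795, nor with scaling by library size alone (0.0625) or without the filter on low counts (0.0656).

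Ahcy (chr2:155059310-155074497, minus strand), adenosylhomocysteinase, removes the S-adenosylhomocysteine that methyl transfer leaves behind, and it followed fasting and refeeding in the same direction as Mat1a. It was at 494 to 636 CPM in fed (median 536) and 593 to 899.1 in fasted wild-type mice (median 840), where only mouse WT_807 fell into the fed range. In WT/Y657* mice it was at 448 to 571 CPM when fed (median 474) and at 680 to 1109 when fasted (median 759), without overlap. The rise on fasting was 1.49-fold in wild-type mice (log2 0.58, standard error 0.10, edgeR adjusted p = 3.85e-05) and 1.63-fold in WT/Y657* mice (log2 0.71, standard error 0.10, edgeR adjusted p = 1.45e-06). On refeeding Ahcy fell by 0.47 (edgeR adjusted p = 0.000556) and by 0.48 (edgeR adjusted p = 0.000407) on the log2 scale, each with a standard error of 0.10, to 549 to 634 CPM in wild-type mice and 521 to 702.3 in WT/Y657* mice. Refed and fed mice overlapped in both genotypes and did not pass the test. With scaling by library size alone, Ahcy was called higher in refed than in fed WT/Y657* mice (log2 0.27, edgeR adjusted p = 0.0358). The main fit gave 0.23 (edgeR adjusted p = 0.107).

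Gnmt (chr17:46725664-46729168, minus strand), glycine N-methyltransferase, consumes S-adenosylmethionine to methylate glycine to sarcosine and is an abundant outlet for surplus methyl groups. Fasted wild-type mice (673 to 1212 CPM, median 1092) overlapped with fed ones (853 to 1262, median 1038). In WT/Y657* mice 4 of the 6 fasted values (862.7 to 1581 CPM, median 1027) were below all fed ones (1120 to 1714, median 1427), with a log2 change of -0.37 that was not called (standard error 0.15, edgeR adjusted p = 0.0518). It was called by DESeq2 (0.0435) and limma-voom (0.0477), and by edgeR with scaling by library size alone (0.0191), with at least 10 counts required in every library (0.0495) and without fasted mouse MT_922 (0.00686) or fed mouse MT_858 (0.0306). Refed wild-type mice were lower, at 594 to 898.8 CPM with a median of 746. The log2 change on refeeding was -0.47 in wild-type mice (standard error 0.15, edgeR adjusted p = 0.0146) and -0.46 in WT/Y657* mice (standard error 0.15, edgeR adjusted p = 0.0160). The latter was not called without fasted mouse MT_922 (0.0869) or refed mouse MT_899 (0.0524), in a fit to the groups compared alone (0.0546) or with scaling by library size alone (0.0557), all from edgeR. Against fed mice, Gnmt was lower in refed wild-type mice by 0.49 (standard error 0.15, edgeR adjusted p = 0.0122) and in refed WT/Y657* mice by 0.83 (standard error 0.15, edgeR adjusted p = 6.52e-05).

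Of the fed WT/Y657* mice, 5 were above every fed wild-type mouse in Gnmt. The log2 difference of 0.43 did not pass the test (standard error 0.15, edgeR adjusted p = 0.103). It passed without fed WT/Y657* mouse MT_858 (0.0471) and with scaling by library size alone (0.0295), both from edgeR, and the latter moved the median of all genes in this comparison from 0.01 to 0.11.

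Bhmt (chr13:93616675-93637961, minus strand), which remethylates homocysteine with a methyl group from betaine, varied more between mice of a group than most genes. Its SD within groups was 0.64 on the log2 CPM scale, larger than that of 92.2% of the genes tested. Fasted WT/Y657* mice spanned from 527 CPM in mouse MT_806 to 4023 in mouse MT_826 (median 2278), and fasted wild-type mice from 1291 to 3618 (median 2612). No comparison of Bhmt was called by edgeR, and the log2 difference between genotypes in fasted mice was -0.05 with an approximate 95% interval from -0.73 to 0.62. Without mouse MT_806, the fall on refeeding in WT/Y657* mice was called (log2 -0.90, edgeR adjusted p = 0.0271), compared with -0.69 in all mice (0.135). An antisense gene on the opposite strand of Bhmt, Gm15622, held 84.4 CPM on average, and whether the counting used strand was not given in the sources used here.

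Pemt (chr11:59970614-60046489, minus strand), phosphatidylethanolamine N-methyltransferase, makes phosphatidylcholine with methyl groups from S-adenosylmethionine and was the steadiest of the 9 genes. Its SD within groups was 0.10 on the log2 CPM scale, and 3.36% of the genes tested had a smaller one. Its levels lay between 150 and 204 CPM over all 36 mice. It was lower in fasted (150 to 167 CPM, median 154) than in fed wild-type mice (165 to 200 CPM, median 174), by 0.20 on the log2 scale (standard error 0.07, edgeR adjusted p = 0.0189). Only the highest fasted mouse reached the fed range, and the difference was not called without fed mouse WT_860 (-0.16, edgeR adjusted p = 0.0663). In WT/Y657* mice the change on fasting was -0.02, with an approximate 95% interval from -0.15 to 0.11, and the difference between the responses was 0.18 (edgeR adjusted p = 0.287).

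Mthfd1, Shmt1 and Shmt2 load and interconvert the one-carbon units that folate carries, and each was lower in fasted WT/Y657* than in fasted wild-type mice. Mthfd1 (chr12:76255298-76319803, plus strand) is the cytosolic enzyme with 3 activities that interconverts formyl, methenyl and methylene folate. Shmt1 (chr11:60788104-60811718, minus strand) in the cytosol and Shmt2 (chr10:127517123-127522444, minus strand) in mitochondria are the serine hydroxymethyltransferases, which split serine into glycine and a one-carbon unit. The bases in front of their RefSeq transcription start sites are shown because these 3 genes fell together in fasted WT/Y657* mice. Each line gives the 250 bases before the start, 5′ to 3′ on the gene's strand, in build GRCm38.p6, with matches to a CCAAT box (CCAAT) or GC box (GGGCGG) on either strand in capitals.
Mthfd1, plus strand, chr12:76254982-76255231: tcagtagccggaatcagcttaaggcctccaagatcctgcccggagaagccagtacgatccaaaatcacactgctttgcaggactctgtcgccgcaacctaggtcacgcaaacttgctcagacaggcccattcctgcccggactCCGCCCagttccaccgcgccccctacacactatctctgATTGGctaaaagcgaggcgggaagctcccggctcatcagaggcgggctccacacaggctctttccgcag
Shmt1, minus strand, chr11:60811266-60811515: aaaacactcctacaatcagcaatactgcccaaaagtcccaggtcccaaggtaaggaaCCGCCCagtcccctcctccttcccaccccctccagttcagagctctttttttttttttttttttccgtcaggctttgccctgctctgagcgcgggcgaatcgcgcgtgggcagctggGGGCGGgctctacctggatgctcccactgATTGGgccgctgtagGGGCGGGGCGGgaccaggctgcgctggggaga
Shmt2, minus strand, chr10:127522445-127522694: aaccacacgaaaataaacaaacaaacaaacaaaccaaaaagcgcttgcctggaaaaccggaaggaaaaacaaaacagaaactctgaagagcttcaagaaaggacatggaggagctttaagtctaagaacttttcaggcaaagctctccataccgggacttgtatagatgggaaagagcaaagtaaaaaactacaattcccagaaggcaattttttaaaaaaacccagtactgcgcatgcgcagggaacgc

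The window of Mthfd1 holds 1 CCAAT box, 69 to 65 bases before the start, and 1 GC box. That of Shmt1 holds 1 CCAAT box, 47 to 43 bases before the start, and 4 GC boxes, the last pair of which share a base. Neither motif is in the window of Shmt2. Of 32851 windows of the same length, 33.9% hold a CCAAT box and 32.7% a GC box, and 6 of the 7 members with a window in the RefSeq table hold a CCAAT box. Members were counted by gene and the background by window. Pemt has more than 1 window and holds a CCAAT box in only 1 of them. On either strand, none of these 7 members has in its window the FOXO motif TGTTTAC (3.17% of all windows), the cAMP response element TGACGTCA (1.55%), the E-box CACGTG (6.02%), the glucocorticoid half-site TGTTCT (16.1%), the C/EBP-ATF element TGATGNAAT (0.816%) or the antioxidant element core TGACNNNGC (10.2%). The nuclear receptor half-site AGGTCA is in the windows of 4 of them, Mthfd1 among them, and in 14.02% of all windows. The GC content was 59.2% for Mthfd1, 60.0% for Shmt1 and 40.8% for Shmt2.

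In fasted wild-type mice Mthfd1 was at 239 to 267 CPM with a median of 251, and in fasted WT/Y657* mice at 131 to 218 with a median of 168. Every fasted WT/Y657* mouse was below every fasted wild-type mouse. The difference was 1.45-fold (log2 -0.54, standard error 0.09, edgeR adjusted p = 7.72e-05). Fed wild-type mice had lain between 275 and 319 CPM and fed WT/Y657* mice between 297 and 334, so that on fasting Mthfd1 fell without overlap in both genotypes. The fall on fasting was 0.83 on the log2 scale in WT/Y657* mice (a change of -0.83, standard error 0.09, edgeR adjusted p = 1.14e-09) and smaller, at -0.23, in wild-type mice (standard error 0.09, edgeR adjusted p = 0.0383). The 2 responses differed by -0.60 (standard error 0.12, edgeR adjusted p = 0.00333). The change in wild-type mice alone was not called without mouse WT_807, WT_825, WT_918 or WT_920 (fasted) or WT_848, WT_850, WT_856 or WT_860 (fed), with edgeR adjusted p between 0.0505 and 0.0863, nor by edgeR's likelihood ratio test (0.0582) or without the filter on low counts (0.0534).

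Refed WT/Y657* mice were at 186 to 279 CPM of Mthfd1 (median 213), and 3 of them were above every fasted WT/Y657* mouse. The rise on refeeding was 0.36 on the log2 scale (standard error 0.09, edgeR adjusted p = 0.00146) in WT/Y657* mice. In wild-type mice the refed range (232 to 260 CPM) overlapped with the fasted one and the change was -0.04, with an approximate 95% interval from -0.21 to 0.13. The difference between these responses was 0.40 (standard error 0.12) and did not pass the test (edgeR adjusted p = 0.0734), although it was called without fasted mouse MT_922 (0.48, edgeR adjusted p = 0.0216), by DESeq2 (0.0367) and with scaling by library size alone (0.0479). Refed mice of both genotypes stayed below all fed mice of their genotype, by 0.27 in wild-type (edgeR adjusted p = 0.0161) and 0.48 in WT/Y657* mice (edgeR adjusted p = 6.52e-05) on the log2 scale. The former was not called with scaling by library size alone (0.0689).

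Shmt1 was at 202 to 232 CPM (median 214) in fasted wild-type mice and at 125 to 200 (median 176) in fasted WT/Y657* mice. The groups did not overlap, although the highest WT/Y657* mouse, at 200.5 CPM, came close to the lowest wild-type mouse, at 202.3. The difference was 1.28-fold (log2 -0.36, standard error 0.10, edgeR adjusted p = 0.0108). Fasting lowered Shmt1 by 0.56 on the log2 scale in WT/Y657* mice (a change of -0.56, standard error 0.10, edgeR adjusted p = 1.81e-05), from 208 to 296 CPM in fed mice. In wild-type mice it changed by -0.03, with an approximate 95% interval from -0.22 to 0.16. The responses differed by -0.53 (standard error 0.14, edgeR adjusted p = 0.0195).

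On refeeding Shmt1 rose by 0.53 in WT/Y657* mice (standard error 0.10, edgeR adjusted p = 5.13e-05), to 188 to 297 CPM. In wild-type mice all 6 refed values (235 to 280 CPM) were above the fasted ones, but the log2 change of 0.24 was not called (standard error 0.10, edgeR adjusted p = 0.0564). It was called without refed mouse WT_828 (0.0493), in a fit to the groups compared alone (0.00558), with at least 10 counts required in every library (0.0429) and with scaling by library size alone (0.0103), all from edgeR. The difference between the refeeding responses of Shmt1, 0.29, was not called (standard error 0.14, edgeR adjusted p = 0.297). Smcr8, a gene on the opposite strand that overlaps Shmt1, held 41.6 CPM on average, 18.5% of the level of Shmt1, and the strand setting is not known for it either.

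Shmt2 was at 126 to 169 CPM (median 152) in fasted wild-type mice and at 72.3 to 125 (median 115) in fasted WT/Y657* mice, without overlap. The difference was 1.40-fold (log2 -0.49, standard error 0.11, edgeR adjusted p = 0.00182). In fed mice the wild-type range was 149 to 201 CPM and the WT/Y657* range 123 to 188. On fasting Shmt2 fell by 0.55 in WT/Y657* mice (standard error 0.11, edgeR adjusted p = 0.0001), and its change of -0.23 in wild-type mice did not pass the test (edgeR adjusted p = 0.0974), except in a fit to the groups compared alone (0.0364). The difference between the responses, -0.32, was not called (standard error 0.15, edgeR adjusted p = 0.229). On refeeding it rose by 0.57 in WT/Y657* mice (standard error 0.11, edgeR adjusted p = 5.48e-05), to 129 to 184 CPM, above every fasted WT/Y657* mouse. In wild-type mice the change on refeeding was 0.13 and was not called (standard error 0.11, edgeR adjusted p = 0.387). The difference between the refeeding responses, 0.45, was not called either (standard error 0.15, edgeR adjusted p = 0.111).

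Nnmt (chr9:48591877-48605153, minus strand), nicotinamide N-methyltransferase, spends S-adenosylmethionine on methylating nicotinamide, and it was the only one of the 9 genes called higher in fasted WT/Y657* mice. Fasted wild-type mice lay between 84.8 and 140 CPM with a median of 101, and fasted WT/Y657* mice between 110 and 382 with a median of 248. Mice MT_806, MT_827 and MT_922 were above 300 CPM (382, 324 and 335), mice MT_826 and MT_923 were at 171 and 157, and mouse MT_921, at 110, was within the wild-type range. The difference was 2.28-fold (log2 1.19, standard error 0.34, edgeR adjusted p = 0.0194). It was not called without mouse MT_806, when the log2 difference was 1.02 (edgeR adjusted p = 0.0682). Its SD within groups was 0.59 on the log2 CPM scale, larger than that of 88.8% of the genes tested.

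In WT/Y657* mice Nnmt was higher on fasting, by 0.97 on the log2 scale (standard error 0.34, edgeR adjusted p = 0.0287), and lower on refeeding, by 0.91 (a change of -0.91, standard error 0.34, edgeR adjusted p = 0.0401). The first was not called without mouse MT_806, MT_827 or MT_922 (fasted) or MT_857, MT_858 or MT_859 (fed), with edgeR adjusted p between 0.0591 and 0.0863, or without the filter on low counts (0.0562). The second was not called without mouse MT_806, MT_827 or MT_922 (fasted) or MT_814, MT_817, MT_897 or MT_899 (refed), with edgeR adjusted p between 0.0829 and 0.116, nor with 4 of the other settings, including mouse number range as a covariate (0.0625). In wild-type mice the corresponding changes of -0.18 and -0.33 were not called. The difference between the fasting responses was 1.14 (standard error 0.48, edgeR adjusted p = 0.181).

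Nnmt is also abundant in adipocytes. Of 5 adipocyte markers, the summed level was 25.5 to 32.2 CPM in fasted wild-type and 13.98 to 123 CPM in fasted WT/Y657* mice. Most of it was Cidec, which liver cells express too, at 20.4 to 24.5 and 12.2 to 123 CPM. Cfd, which encodes adipsin, went the other way, with 2.53 to 5.94 CPM in fasted wild-type and 0 to 2.91 CPM in fasted WT/Y657* mice. Lep was at 0 in every fasted WT/Y657* mouse, Plin1 at most at 0.257 CPM and Adipoq at most at 0.684 CPM, compared with up to 2.65 CPM of Adipoq in a fasted wild-type mouse. Neither Cidec (log2 1.06) nor Cfd (log2 -1.90), the 2 adipocyte markers that could be tested, was called between genotypes in fasted mice by edgeR. Hepatocyte markers (59112 to 88272 CPM in wild-type, 66931 to 84376 in WT/Y657* mice) and macrophage markers (208 to 388 and 219 to 373 CPM) overlapped between the fasted genotypes, and none of them was called. Of 5 stellate cell and fibroblast markers (328 to 397 and 360 to 525 CPM), Dcn was called higher (log2 0.42), and of 5 endothelial markers (292 to 339 and 278 to 342 CPM), Lyve1 was called higher (log2 1.32). Their part in the differences of the 9 enzymes was not tested.

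**Figure D2:**
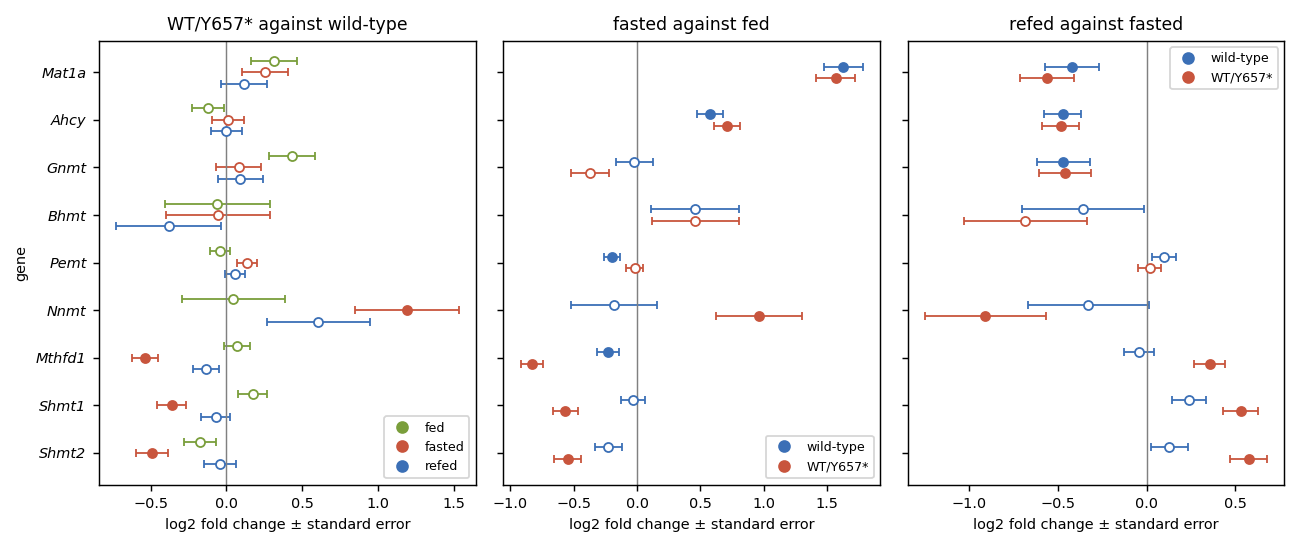
Log2 fold change (horizontal axes) of each enzyme with its standard error derived from edgeR's test, between genotypes in each state (left) and for fasting (middle) and refeeding (right) in each genotype. Filled points passed the test. Mthfd1, Shmt1 and Shmt2 lie to the left of 0 and Nnmt to the right among the filled points between genotypes, all of them in fasted mice.

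Counted over the 9 members, fasted WT/Y657* mice had 1 called higher and 3 called lower, where 6.43% of all genes tested were called higher and 6.63% lower. In fed mice no member was called in either direction, at 1.21% and 1.15% of all genes, with 2 members (Mat1a and Gnmt) at an unadjusted p under 0.05 and none called by DESeq2, limma-voom or edgeR's likelihood ratio test. In refed mice no member was called, at 0.0215% and 0.00717% of all genes, with no member at an unadjusted p under 0.05 and none called by these other tests.

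On fasting, 2 members were called higher (14.5% of all genes) and 2 lower (17.5%) in wild-type mice, and 3 higher (15.2%) and 3 lower (17.7%) in WT/Y657* mice. On refeeding, none was called higher (16.5%) and 3 lower (13.7%) in wild-type mice, while in WT/Y657* mice 3 were called higher (17.1%) and 4 lower (14.2%). Shmt1 was the wild-type member higher on refeeding at an unadjusted edgeR p under 0.05, and DESeq2 called none higher either. Between refed and fed mice, 1 was higher (13.2% and 13% of all genes) and 2 were lower (14.3% and 13.1%) in wild-type and WT/Y657* mice, and these were Mat1a, Gnmt and Mthfd1 in both. The fasting comparisons share fasted mice with the refeeding comparisons. In the difference of the fasting responses, none was called higher (2.59%), with Nnmt at an unadjusted edgeR p of 0.0237, and 2, Mthfd1 and Shmt1, were called lower (1.76%). In that of the refeeding responses none was called (0.595% higher and 1.46% lower), with 3 members at an unadjusted p under 0.05, and DESeq2 called 1, Mthfd1.

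The genotype differences in fasted mice were also read within each range of mouse numbers, 3 mice against 3, with no test. For Mthfd1 the log2 CPM difference was -0.57 in the lower and -0.53 in the higher range. For Shmt1 it was -0.45 and -0.30, for Shmt2 -0.60 and -0.41, and for Nnmt 1.34 and 0.80. In refed mice the lower range gave 0.01 for Mthfd1, 0.03 for Shmt1 and 0.03 for Shmt2, and the higher range -0.30, -0.19 and -0.14. For Nnmt in refed mice it was 0.11 in the lower and 0.98 in the higher range.

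**Figure D3:**
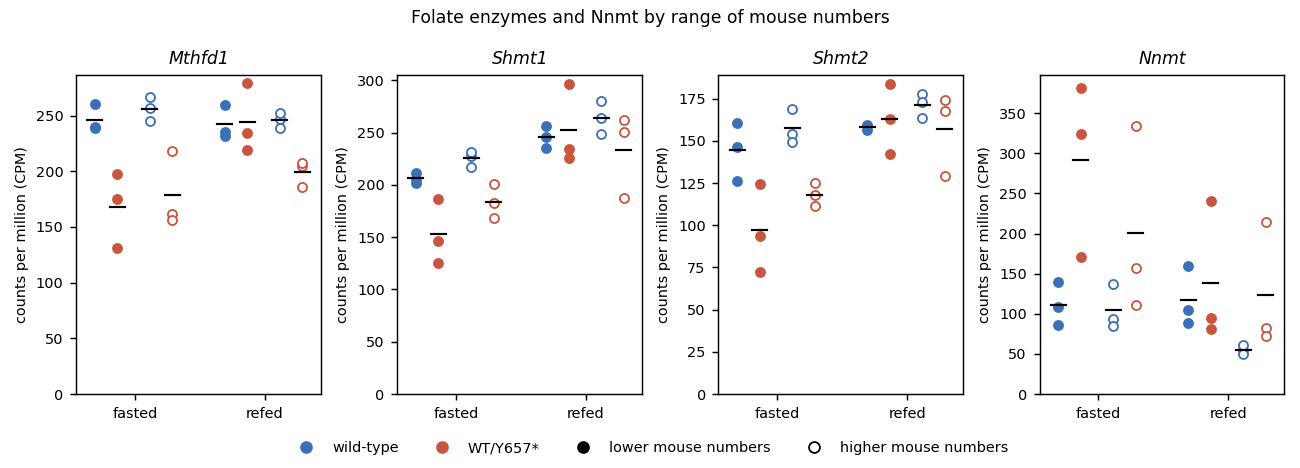
CPM (vertical axes, linear and starting at 0) of Mthfd1, Shmt1, Shmt2 and Nnmt in fasted and refed mice, with filled points for the lower and open points for the higher range of mouse numbers and a bar at the mean of each 3 mice. In fasted mice the WT/Y657* mean is below the wild-type mean for the 3 folate enzymes, and above it for Nnmt, in both ranges.

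Around the 9 enzymes, 81 further genes of one-carbon metabolism were read in 9 groups, of which 80 passed the filter on low counts. In fasted WT/Y657* mice 5 of these were called higher and 8 of them lower, with a median log2 difference of -0.02 (0.00 over all genes). These are 6.25% and 10% of the 80 genes, near the 6.43% and 6.63% of all genes, the background of the counts by group as well. Among the groups, the largest share called lower was in the 10 genes of the choline, betaine and glycine group, with 4 called lower and none higher and a median of -0.25. Sardh, sarcosine dehydrogenase, which breaks down the sarcosine that Gnmt makes, was lower by 0.64 (standard error 0.12, edgeR adjusted p = 0.000308). Chdh, choline dehydrogenase, which starts the oxidation of choline to the betaine that Bhmt uses, was lower by 0.42 (standard error 0.08, edgeR adjusted p = 0.000593).

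In the same comparison 3 of 16 further folate genes were called higher and 1 was called lower (6.43% and 6.63% of all genes). Slc19a1, the reduced folate carrier, was higher by 0.74 (standard error 0.13, edgeR adjusted p = 0.000185), and Ggh, which trims the glutamate tail of folates, by 0.35 (standard error 0.10, edgeR adjusted p = 0.0115). Mthfd1l was also called higher, by 1.77, the opposite direction to Mthfd1, Shmt1 and Shmt2. The folate gene called lower was Slc46a1 (-0.37). Of 6 further methyltransferases 1 was called higher and 2 lower. Gamt, which spends S-adenosylmethionine on creatine synthesis, was lower by 0.88 (standard error 0.14, edgeR adjusted p = 0.000123), and As3mt, an arsenic methyltransferase, higher by 0.68 (standard error 0.14, edgeR adjusted p = 0.00167). Of 6 serine and glycine genes, Sdsl, a serine dehydratase-like gene, was called higher (1.34, standard error 0.32, edgeR adjusted p = 0.00510).

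Of 8 phosphatidylcholine genes, Pcyt1a, the rate-limiting enzyme of the choline route, was called lower (-0.29, standard error 0.08, edgeR adjusted p = 0.0180), a call that was lost without mouse MT_806 (0.0684). Among 10 methionine cycle, 7 transsulfuration, 10 methionine salvage and polyamine and 7 nicotinamide genes, edgeR called none, with 3, 1, 4 and 1 at an unadjusted p under 0.05. DESeq2 called 1 of the nicotinamide genes and none of the others. In refed mice edgeR called none of the 80 genes between genotypes, with 17 at an unadjusted p under 0.05 and 1 called by DESeq2.

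On fasting in wild-type mice 13 of the 80 genes were called higher and 16 lower. At 16.25% and 20% these shares were near the 14.5% and 17.5% of all genes, which are also the background of the counts by group. Among the methionine cycle genes Ahcyl2, a relative of Ahcy, changed by -1.05 (standard error 0.15, edgeR adjusted p = 7.67e-07). Of the 6 further methyltransferases 4 were called lower and none higher, among them Tpmt (-0.62, edgeR adjusted p = 7.56e-05). Of 7 transsulfuration and glutathione genes 3 were called higher and none lower, among them Cdo1, cysteine dioxygenase (0.48, edgeR adjusted p = 2.47e-05), and Gclc, the catalytic subunit of glutamate-cysteine ligase (0.60, edgeR adjusted p = 0.00142).

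Of 10 methionine salvage and polyamine genes 1 was called higher and 3 lower on fasting in wild-type mice, among them Srm, spermidine synthase (-1.19, edgeR adjusted p = 2.74e-09), and Amd1, which decarboxylates S-adenosylmethionine (-0.80, edgeR adjusted p = 0.000212). Of the 16 folate genes 1 was higher, Fpgs, which adds glutamates to folate (0.59, edgeR adjusted p = 1.44e-05), and 2 were lower, among them Aldh1l1, which oxidises formyl folate (-0.87, edgeR adjusted p = 4.02e-06). Psph, the last enzyme of serine synthesis, was lower (-0.79, edgeR adjusted p = 0.000201). Of 8 phosphatidylcholine genes 3 were higher, among them Chkb, a choline kinase (1.30, edgeR adjusted p = 2.45e-12), and Chpt1, a cholinephosphotransferase (0.57, edgeR adjusted p = 0.00298), and 1 was lower.

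Of 7 nicotinamide genes 2 were lower on fasting in wild-type mice, Qprt of the de novo route to NAD (-0.72, edgeR adjusted p = 8.28e-06) and Aox3, an aldehyde oxidase (-0.76, edgeR adjusted p = 0.00174). Of the 10 choline, betaine and glycine genes 2 were higher and 1 lower. Chdh rose by 0.30 (edgeR adjusted p = 0.00369) and Slc44a1, a choline transporter, changed by -0.32 (edgeR adjusted p = 0.00294). In WT/Y657* mice 15 of the 80 genes (18.75%) were called higher and 21 (26.25%) lower on fasting, compared with 15.2% and 17.7% of all genes.

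**Figure D4:**
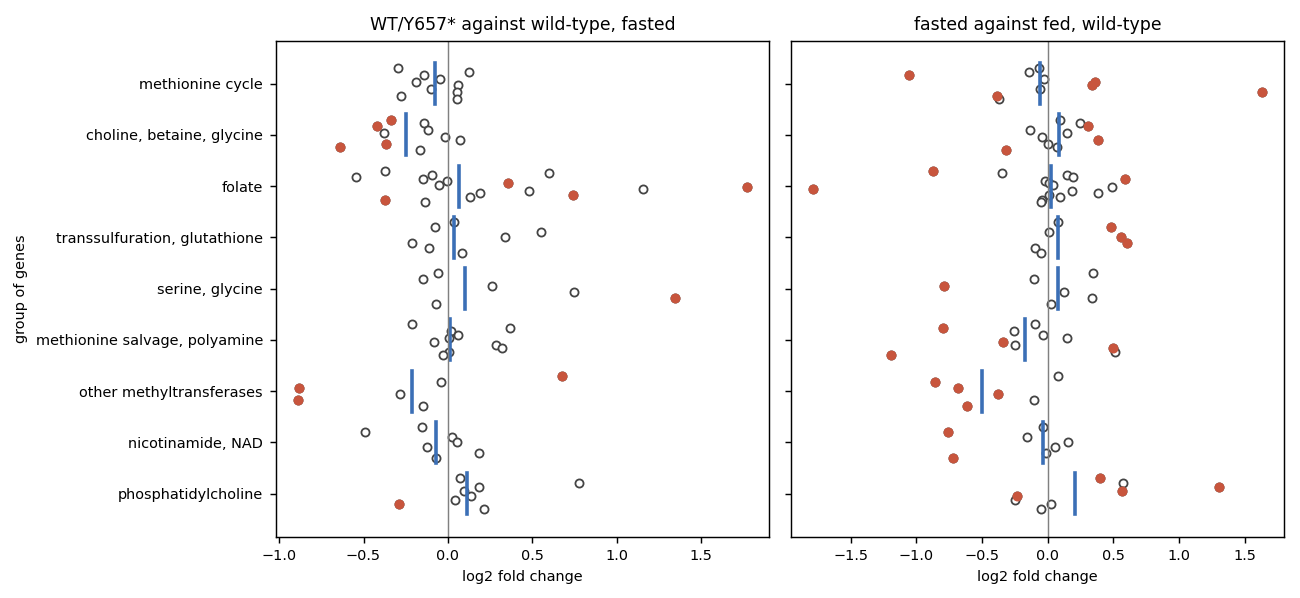
Log2 fold change (horizontal axes) of the 80 further genes of one-carbon metabolism by group, between genotypes in fasted mice (left) and on fasting in wild-type mice (right). Each circle is a gene, filled where it passed the test, and the bar marks the median of the group. The median of the choline, betaine and glycine genes is -0.25 on the left, and that of the other methyltransferases is -0.50 on the right.

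The genes whose pattern over the 36 mice was most like that of a member were found for the 3 members with the widest range of group means, by the root mean square difference of log2 CPM centred on each gene's own mean. Members and genes of low mean level were left out of this search. For Mat1a, which varied by 0.72 about its own mean, these were Tmem120a (0.31) and Bnip3 (0.32). For Nnmt, which varied by 0.70, they were AI607873 (0.43) and Osmr (0.44). For Gnmt, which varied by 0.40, they were 5730469M10Rik (0.20) and Gls2 (0.21), the latter a glutaminase of liver.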

How the data were processed

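RNA sequencing of whole liver measured each gene in 36 mice. The labels name a stranded total RNA kit with 50-base single reads, Cuffdiff, SAMtools, FeatureCount and edgeR, and genome build mm9, and their protocol text speaks of human genes. The deposited gene positions overlapped the same gene in the GENCODE M21 annotation of GRCm38 for 99.8% of the genes found there, so this annotation was used for positions and lengths. The values deposited by the authors are estimated counts of reads on each gene, not normalized. Of those above 0, 3.64% were not whole, and all were rounded. A second deposited table holds fitted values with no variation between mice and was not used.

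Genes were filtered with filterByExpr and libraries scaled by TMM in edgeR 4.0.16 (R 4.3.3). All 36 mice entered a single quasi-likelihood fit with a coefficient for each group and two-sided contrasts, and Benjamini-Hochberg adjustment ran over 13945 genes with a threshold of 0.05. Standard errors were derived as the absolute log2 change divided by the square root of the F statistic of the quasi-likelihood test. Intervals take the standard error as normal. Log2 CPM used a prior count of 2. On simulated counts for the comparison of fasted genotypes among 13763 genes, 48.5% of changes of 0.5 and 71.9% of changes of 1 on the log2 scale were recovered, with 3 false among 120 calls. Far fewer genes were changed there (99 and 96) than were called in the data (896 higher and 925 lower). These shares therefore need not hold for the real comparison. Alternatives were DESeq2 1.42.0, limma-voom (limma 3.58.1), the likelihood ratio test, other scalings and filters, fits to the groups compared, mouse number range as a covariate, and each mouse left out.

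Members, gene lists, markers and motifs were chosen with earlier results of these data known. Further genes were named by rule, up to 2 per group with the smallest p among those called in the comparison of fasted genotypes and up to 2 on fasting in wild-type mice. Dcn, Lyve1, Mthfd1l and Slc46a1 were named after their values were seen. Promoter sequences came from RefSeq, where 7 of 9 members matched (not Mat1a or Nnmt). Similar genes by sequence held at most 0.159% of a member's level. Counting error alone is small at these levels, and the errors given reflect differences between mice.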

Additional observations from a re-analysis of the deposited data

Results flagged for a closer look

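Over the 54 combinations of member and group, 2 held a mouse far from the other 5 by Dixon's test on log2 CPM, where chance gives about 5% of groups. Fasted wild-type mouse WT_807 was at 593 CPM of Ahcy, and the other 5 at 803 to 899.1. Fed WT/Y657* mouse MT_869 was at 194 CPM of Pemt, and the other 5 at 166 to 175.

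The fasting response differed between genotypes for Mthfd1, by -0.60 on the log2 scale (edgeR adjusted p = 0.00333), and for Shmt1, by -0.53 (edgeR adjusted p = 0.0195). Both were called in each of the 24 fits that left out 1 mouse.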

How the results depend on the processing

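Of 837 values of a member under an alternative fit, 810 kept their side of the threshold, 12 lost the call and 15 gained it. None called changed direction. Of 1404 with 1 mouse left out, 1366 kept their side, 32 lost the call and 6 gained it. Values that were not called could change sign. Under the alternatives the log2 difference of Pemt between fed genotypes ranged from -0.048 to 0.058. With 1 mouse left out, that of Gnmt between fasted genotypes ranged from -0.054 to 0.14. The calls of Mthfd1, Shmt1, Shmt2 and Nnmt between fasted genotypes held in all 9 alternatives, with edgeR, DESeq2 or limma adjusted p up to 0.00367, 0.0315, 0.0132 and 0.0373, and without each mouse in turn 3 to 4 members were called. The cause of the changes below was not tested.

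Among all genes, the 330 called between fed genotypes became 516 with the likelihood ratio test, 756 with library size alone (672 higher, 84 lower, against 169 and 161), 207 without the filter, 644 with DESeq2 and 30 in a fit to the groups compared, and 68 (without MT_868) to 9.0e+02 (without MT_858, rounded to 2 digits) with 1 mouse left out. Library size alone called 1 member there, and leaving out a mouse 0 to 1. The 1821 between fasted genotypes became 1168 (without mouse MT_806) to 2003. The 4 between refed genotypes became 18 with the likelihood ratio test, 25 with DESeq2, 12 with mouse number range and 1 to 6 without a mouse. In the difference of fasting responses, 607 became 386 without the filter, and 409 to 745 without a mouse. In that of refeeding responses, 287 became 152 without the filter and 124 (without MT_806) to 391 without a mouse, and 1 member was called with DESeq2, 1 with library size alone and 0 to 1 without a mouse. On fasting in wild-type mice 2 to 4 members were called without a mouse, the 2 without fed mouse WT_860. With scaling by library size alone, the median log2 change of all genes reached at most 0.11, between fed genotypes, where it was 0.01 in the main fit. No paired analysis was possible because the groups share no mouse number.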
